A study of Mus musculus with 4 samples.

Results

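The keratin gene family of the mouse was followed in dissected lower dental arches, the piece of the jaw in which the teeth form. Its members were all rows of the deposited gene table whose symbol is Krt followed by a number and at most 1 letter from a to c, which gave 55 of 24972 rows. They were divided by their known sites of use into basal (3 genes), skin suprabasal (4), oral (3), stress (4), simple (4) and hair keratins (22), with 15 members outside these groups. The choice of members used symbols and not measured values, although the groups were drawn up with earlier results of these data known.

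RNA came from mandibular dental arches at embryonic day 17.5. There were 2 libraries of Ascl5WTWT (wild type, libraries 15 and 20) and 2 of Ascl5MutMut (homozygous for an Ascl5 variant, here mutant, libraries 18 and 14). Ascl5 belongs to the helix-loop-helix family of transcription factors. The labels name no other allele or treatment. They do not say what the variant changes, whether a library is 1 embryo or a pool, or the sex, so a p-value here measures only how these samples spread, and part of that spread may be technical.

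Keratins are the intermediate filament proteins of epithelial cells. A filament is built from pairs of 1 acidic (type I) and 1 basic (type II) keratin, and epithelia change their pair as they mature: Krt5 with Krt14 in dividing basal cells, Krt1 with Krt10 once a cell of the skin leaves the basal layer, Krt4 with Krt13 in the moist lining of the mouth, Krt8 with Krt18 in simple and glandular epithelium, and a long series of hair keratins in the sheaths and shaft of the hair follicle. Each group of keratins is therefore tied to a kind of epithelium and to its maturity. In bulk RNA, fewer cells of a type and less RNA per cell cannot be told apart.

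The deposited values are normalized counts, which summed to between 22134483 and 22578580 per library. Mutant library 14 stood apart from the others: its score on principal component 1, which held 41.9% of the variance, was 71.2, and those of mutant 18, wild type 15 and wild type 20 were -13.6, -17.7 and -39.9. Wild type 15 alone had a high level of Xist (38619 normalized counts, against 12.7 or less elsewhere) and had no count of the Y-linked Ddx3y, so sex was not balanced between the genotypes. Ascl5 itself was at 21.8 (wild type 15), 37.3 (wild type 20), 10.6 (mutant 18) and 12.1 (mutant 14; limma log2 fold change -1.29, SE 0.48, adjusted p = 0.9999), which does not check the labels, since the variant's effect on the transcript is not given. Markers of the labelled tissue were present in every library, with the dentin gene Dspp at 629 to 1910 and the osteoblast factor Sp7 at 4598 to 7749. General epithelial markers (Cdh1, Epcam and 11 others) were all highest in mutant 14 (25.9% of all genes were). Their sum was 7597 and 7905 in wild-type libraries 15 and 20, 8042 in mutant 18 and 13422 in mutant 14. By this sum 3 of the 4 libraries held similar amounts. Gene by gene, all 13 were higher in mutant (50.6% of all genes were), with a median log2 fold change of 0.45. In 8 of them both mutant values lay above both wild-type values (13.4% of all genes). The part of these epithelial differences in the keratin values was not tested.

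Keratins were higher in the mutant libraries as a family, mostly through the suprabasal keratins of skin, while no single member passed the test. The family summed to 123923 normalized counts in wild type 15, 128307 in wild type 20, 184313 in mutant 18 and 271759 in mutant 14. As a share of all normalized counts this was 0.554%, 0.568%, 0.819% and 1.23%. Both mutant libraries were above both wild-type libraries. Without Krt1 and Krt10 the sums were 71041, 92650, 96772 and 132509 in the order wild type 15, wild type 20, mutant 18 and mutant 14 (the order used for values in 4 libraries from here on), and then mutant 18 was close to wild type 20.

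The test took genes whose mean over the libraries was 1 or more, and 54 of the 55 members passed that filter. Krt88 did not, and Krt39 passed only through its mutant libraries. Of the 54, 46 were higher and 8 lower in mutant, with a median log2 fold change of 0.45 (all 17979 genes tested had a median of 0.0025, and 50.6% of them were higher). In 16 members both mutant values lay above both wild-type values (29.6% of those tested, where 13.4% of all genes did), and 1 member, Krt222, lay the other way (14% of all genes did). Without Krt39, whose direction the filter fixed, 45 of 53 were higher and 15 did not overlap (28.3%). For comparison, the 13 general epithelial markers had a median log2 fold change of 0.45, and 8 of them did not overlap. With limma and Benjamini-Hochberg adjustment over all genes, 0 keratins passed the threshold of 0.05 (0.0111% of all genes did), and at an unadjusted p under 0.05 there were 9 (4.27% of all genes), all 9 higher (3.12% of all genes were higher at that p). The smallest adjusted p was 0.311. Leaving out wild type 15, wild type 20, mutant 18 or mutant 14 left 37, 47, 32 or 46 members higher in mutant. Every mutant value then lay above every wild-type value in 24, 32, 26 or 36 of at most 54 members. Of all genes, 30.1%, 33%, 30.9% or 31.8% did so. These shares exceed the 13.4% with all libraries, since fewer values are then compared. With 2 libraries against 2, an exact permutation test of 1 gene cannot go below a two-sided p of 0.333.

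**Figure D1:**
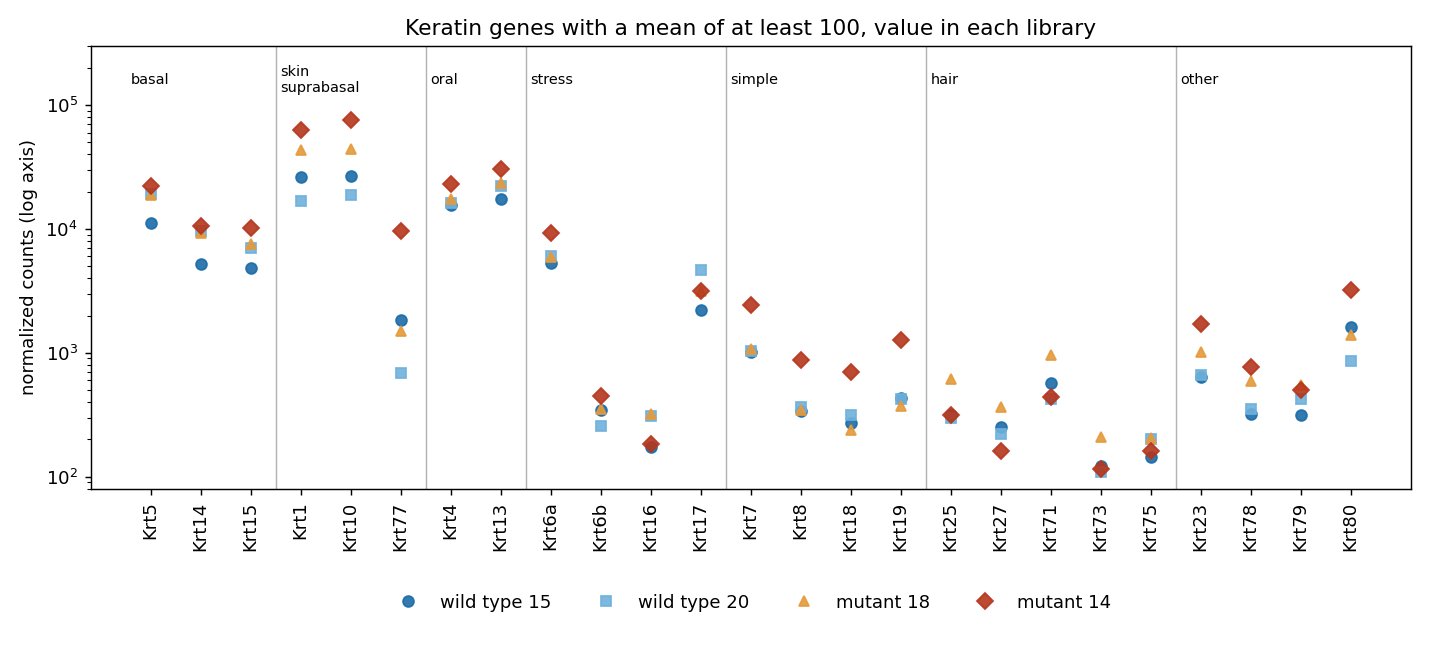
Normalized counts (log axis) of the 25 keratin genes with a mean of at least 100, by group, with 1 point per library. Krt1 and Krt10 separate the 2 mutant from the 2 wild-type libraries, the simple keratins Krt7, Krt8, Krt18 and Krt19 set mutant 14 above the other libraries, and Krt25, Krt27, Krt71 and Krt73 set mutant 18 above them.

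Per length and over all 4 libraries, the family was led by Krt10 and Krt1, followed by Krt13, Krt4, Krt5, Krt14, Krt15, Krt6a and Krt17. On the scale of normalized counts per kilobase of exon, the level of Krt10 was 10769 ± 2624 in wild type and 28441 ± 10563 in mutant (SD, n = 2), that of Krt1 8760 ± 2701 and 21699 ± 5798, and that of Krt13 11964 ± 1926 and 16182 ± 2951. In wild type Krt13 had the highest mean, and the ranges of these 3 overlapped. So did those of Krt4 (7411 ± 206 and 9532 ± 1874) and Krt5 (6956 ± 2595 and 9364 ± 1170) in both genotypes, and those of Krt14 (4361 ± 1861 and 5828 ± 551) and Krt15 (3492 ± 935 and 5230 ± 1129). At the other end, 7 of the 54 tested members had means under 10 normalized counts.

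The basal keratins mark the layer of dividing cells that underlies both skin and mouth lining. Krt5, the basal type II keratin, was at 11251, 19312, 18755 and 22390 normalized counts. Its partner Krt14 was at 5171, 9640, 9235 and 10557, and Krt15, a second basal type I keratin, at 4813, 7060, 7534 and 10249. All 3 were lowest in wild type 15 and highest in mutant 14, and wild type 20 and mutant 18 were alike. The genotypes overlapped for Krt5 and Krt14 (log2 fold changes 0.48, SE 0.26, and 0.48, SE 0.27) and not for Krt15 (0.59, SE 0.23), and none passed with limma (adjusted p = 0.9999 for each). The group's median log2 fold change of 0.48 fell to 0.086 when wild type 15 was left out and was 0.87 when wild type 20 was, so most of the difference rested on wild type 15.

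Krt1 and Krt10, the pair that replaces Krt5 and Krt14 when epidermal cells move up from the basal layer, were higher in both mutant libraries. Krt1 (chromosome 15, 101845426 to 101850794, GRCm38) was at 26194, 16815, 43207 and 63337. The mutant mean was 2.48-fold the wild-type mean, with a log2 fold change of 1.32 (SE 0.28, limma, adjusted p = 0.407). Krt10 (chromosome 11, 99385254 to 99389364) was at 26688, 18842, 44334 and 75914, a 2.64-fold difference of means (log2 fold change 1.37, SE 0.30, adjusted p = 0.418). In both genes the lower mutant library was more than 1.5 times the higher wild-type library.

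The other suprabasal skin keratins followed different libraries. Krt77, a type II keratin of suprabasal mouse epidermis, was at 1834, 685, 1513 and 9586, so that mutant 14 had 7.13 times the mean of the other 3 libraries while mutant 18 lay below wild type 15. Its log2 fold change was 1.76 (SE 0.78, limma, adjusted p = 0.9999) and was 0.43 without mutant 14. Krt2, a keratin of the upper epidermal layers, was low at 20.9, 40.6, 80.9 and 27.4 and was highest in mutant 18. The median of the 4 skin suprabasal keratins was 1.34 on the log2 scale, the highest of the 6 groups, and stayed between 1.01 (without mutant 14) and 1.68 (without mutant 18) when 1 library was left out.

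Whether the skin keratins stood out against the rest of the epithelium depended on the reference. Relative to the summed basal keratins, the log2 ratio of the skin suprabasal sum was 1.37, 0.015, 1.33 and 1.79, so wild type 15 lay among the mutants. Relative to Cdh1 and Epcam, taken from the general epithelial markers, it was 4.34, 3.68, 5.10 and 5.08, with both mutants above both wild-type libraries. The log2 fold changes of Cdh1 and Epcam themselves were 0.39 and 0.029, where the median of those markers was 0.45. The mean difference of mutant minus wild type was 0.87 with the basal reference and 1.08 with the epithelial one. Without wild type 20 the former was 0.19, and without wild type 15 it was 1.54.

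**Figure D2:**
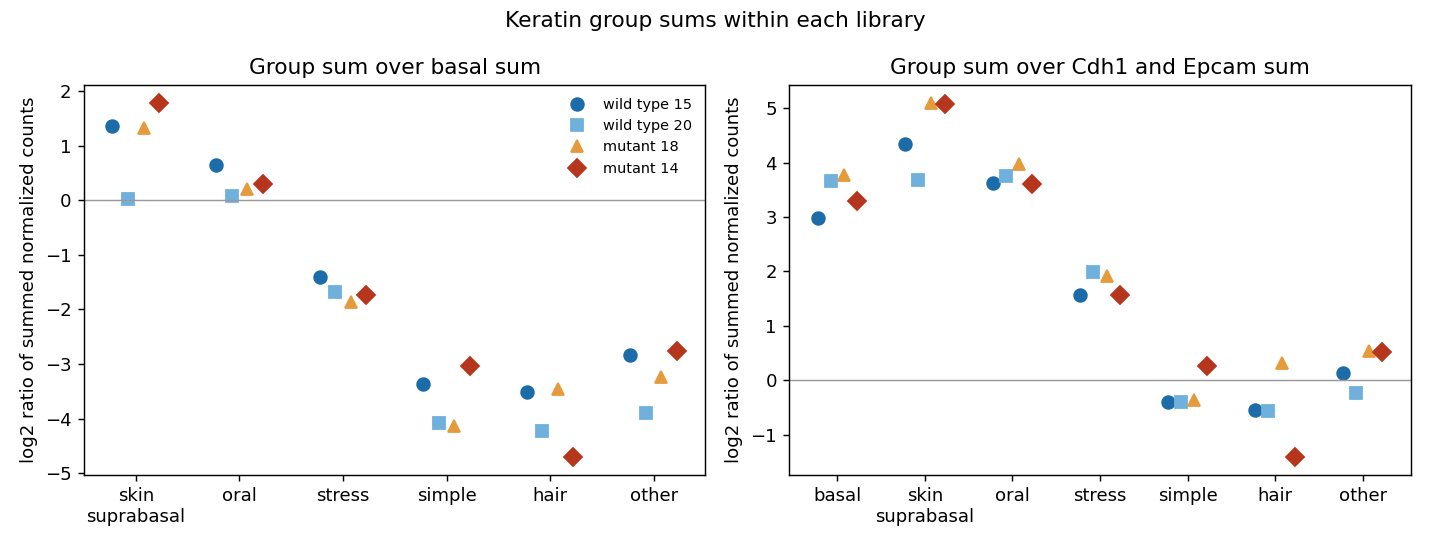
Log2 ratio of the summed normalized counts of each keratin group to the basal keratin sum (left) and to the sum of Cdh1 and Epcam (right), with 1 point per library. The skin suprabasal ratios of the mutants, 5.10 and 5.08, lie above those of wild type, 4.34 and 3.68, only on the right; hair keratins are highest in mutant 18 and lowest in mutant 14 in both panels.

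Genes of the upper epidermis that are not keratins were also higher in mutant. All 18 tested members of a list of cornified layer genes were higher in mutant and 17 did not overlap (13.4% of all genes), with a median log2 fold change of 1.10. With limma 0 passed over all genes, and 17 had an unadjusted p under 0.05 (4.27% of all genes). Their summed values were 24211, 23595, 41417 and 68380. Loricrin (Lor), the main protein of the cornified envelope, was at 6447, 5195, 10973 and 24814. Hornerin (Hrnr), a filament-associated protein of the granular layer, was at 12601, 8143, 22753 and 37407. It was not in this list and is counted with the linker genes below. The part of these genes in the keratin result was not tested.

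Oral keratins had smaller fold changes than those of skin, and the difference between the groups was not tested. Krt13, the type I keratin of mouth lining, was at 17536, 22040, 23313 and 30216 (log2 fold change 0.43, SE 0.21). Its partner Krt4 was at 15496, 16118, 17506 and 23159 (0.35, SE 0.19). Both mutant values lay above both wild-type values in each gene, with mutant 18 close to wild type 20, and neither passed (limma, adjusted p = 0.9999 for each). Krt76, a keratin of the hard palate and gum, was near the floor at 7.31, 3.96, 8.57 and 5.08. The group median was 0.35, and it was 0.55 without mutant 18 and 0.25 without mutant 14. Without mutant 14 the log2 fold change of Krt4 was 0.15 and that of Krt13 was 0.25; without mutant 18 that of Krt4 was 0.55, and without wild type 15 that of Krt13 was 0.27.

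The balance of skin suprabasal to oral keratin RNA differed between the libraries. The sum of skin suprabasal keratins was 1.66, 0.953, 2.18 and 2.79 times the sum of oral keratins. Krt1 and Krt10 made up 42.7%, 27.8%, 47.5% and 51.2% of all keratin counts. These are ratios within a library, so they do not depend on scaling between libraries, and their genotypes did not overlap. The labels do not say how much skin or gum was left on each dental arch, and its amount and the genotype cannot be told apart here.

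The stress keratins, which are induced in wounds and are also found in hair follicles, periderm and mouth lining, showed no common direction. Krt6a was at 5287, 6037, 5972 and 9247 and Krt6b at 345, 255, 354 and 449. Their partner Krt16 was at 175, 308, 319 and 183, with wild type 20 and mutant 18 both above the other libraries. Krt17, also a keratin of early hair germs, was at 2219, 4665, 3145 and 3126 and was highest in wild type 20. Of the 4 members, 3 were higher, 1 of them (Krt6b) with no overlap, and 1 lower. The median log2 fold change of 0.23 turned to -0.024 without wild type 15 and was 0.48 without wild type 20. Krt6a and Krt6b share 44.8% of their 50-base stretches of transcript with other family members, mostly with each other, so reads could be split between them. Krt16 shares 12.4%, most with the more abundant Krt14.

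Simple keratins were high in 1 library. Krt8, the type II keratin of simple and glandular epithelium, was at 341, 362, 343 and 883. Its partner Krt18 was at 270, 315, 237 and 698. Krt7, of ducts and glands, was at 1014, 1042, 1079 and 2435, and Krt19, a type I keratin of ducts and of some basal cells, at 434, 422, 369 and 1281.

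All 4 simple keratins were highest in mutant 14, by 2.33-fold to 3.14-fold over the mean of the other 3 libraries, and those 3 were within 1.33-fold of each other in every gene. Of all genes tested, 25.9% were highest in mutant 14. The group's median log2 fold change of 0.65 turned to -0.12 without mutant 14, and the genotypes overlapped for Krt8, Krt18 and Krt19. No member passed (limma, adjusted p = 0.9999 for each).

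Most salivary gland genes were highest in the same library. Of 14 tested members of the salivary list, 12 were highest in mutant 14. For 5 of them (Smgc, Bpifa2, Dcpp2, Muc19 and Lpo) this was fixed by the filter on low values, which they passed only through that library, and of the other 9 tested members 7 were highest there (25.9% of all genes were). The list summed to 2473, 1998, 2126 and 9288. Smgc, a secreted protein of the fetal salivary gland, was listed at 0, 0, 0.953 and 4219. Dcpp3, another secreted salivary protein, was at 1.05, 0.981, 19.1 and 408. Without Smgc the list summed to 2473, 1998, 2125 and 5068. The part of glandular tissue in the simple keratin values was not tested.

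Hair keratins were highest in the other mutant library. Of the 22 members, 18 were highest in mutant 18 (81.8%, where 23.2% of all genes tested were), 3 in wild type 20 and 1, Krt74, in mutant 14. None was highest in wild type 15. The summed values were 1857, 1924, 3243 and 1665, so the 2 mutant libraries were the extremes and the wild-type libraries lay between them. The median log2 fold change was 0.38, with 17 members higher and 5 lower, and it turned to -0.16 without mutant 18 and to -0.0029 without wild type 15. Without mutant 14 it was 0.71. Of the 22, 2 did not overlap between genotypes (9.09%, against 13.4% of all genes), namely Krt31 and Krt35, type I keratins of the hair shaft.

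**Figure D3:**
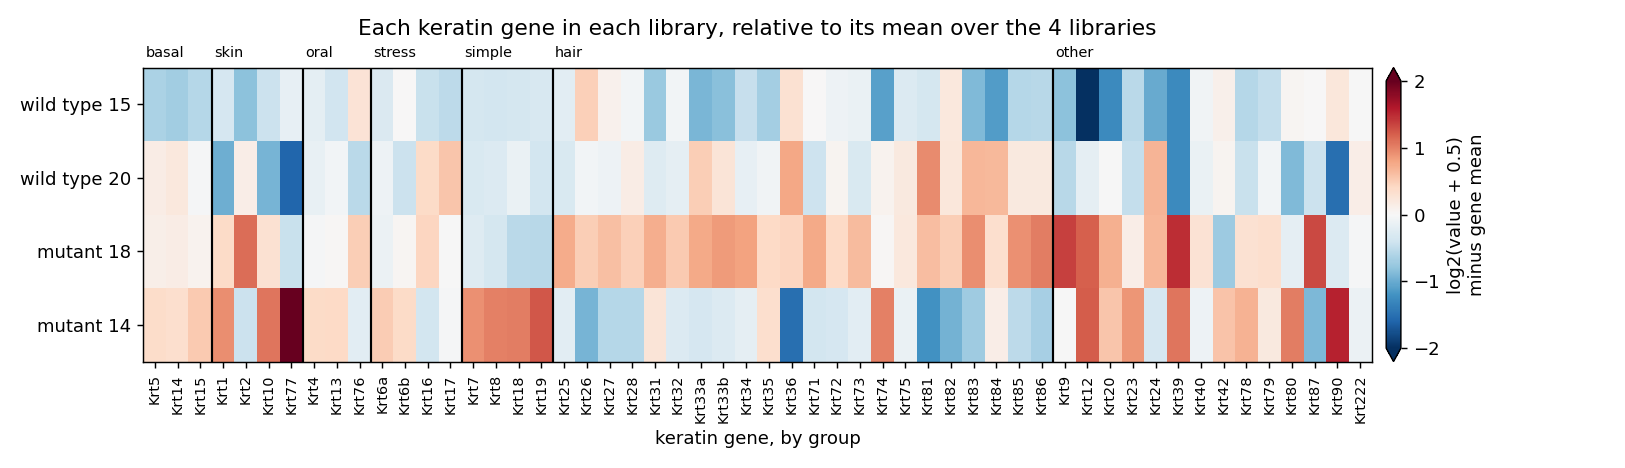
Each tested keratin gene (columns, by group) in each library (rows), as log2(value + 0.5) minus the gene's mean over the 4 libraries, with colours limited at -2 and 2. The 4 simple keratins are red in mutant 14, and 18 of 22 hair keratins are at their highest in mutant 18.

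The inner root sheath, which encloses the growing hair, uses Krt25, Krt26, Krt27 and Krt28 of type I and Krt71, Krt72, Krt73 and Krt74 of type II. Krt71 was at 568, 425, 960 and 440. Krt25 was at 317, 299, 615 and 317, Krt27 at 253, 222, 363 and 162, and Krt73 at 122, 109, 209 and 116. Each had its highest value in mutant 18, at 1.71 to 2.01 times the mean of the other 3 libraries, and the other 3 libraries were close in Krt25 and Krt73. Krt25 and Krt27 share 10.9% and 11.1% of their 50-base transcript stretches with other members, each most with the other, so some reads could be split between them. Krt74, which the annotation lists as a pseudogene in the mouse, was at 1.05 to 6.10. Krt75, a keratin of the companion layer between the sheaths, varied less, at 145, 203, 206 and 161.

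Keratins of the hair cortex and cuticle were at lower levels. Krt35, among the first shaft keratins to appear, was at 59.2, 90.5, 125 and 120 (log2 fold change 0.74, SE 0.30, adjusted p = 0.9999). Krt31 was at 15.6, 21.9, 43.8 and 31.6 (log2 fold change 0.99, SE 0.42, adjusted p = 0.9999). These p-values are from limma, adjusted over all genes. Krt86, a type II shaft keratin, was at 16.5, 28.0, 50.5 and 15.3, and Krt85, its relative in the same cells, at 16.6, 28.8, 47.6 and 17.3. Krt36, known from the tongue and nail, was lowest in mutant 14 (15.6, 21.8, 17.1 and 4.07). Krt31, Krt33a, Krt33b, Krt34, Krt81, Krt83 and Krt86 each share between 17.8% and 43.3% of their 50-base transcript stretches with other members, so the values of single shaft keratins are uncertain, and their common order across the libraries is not independent evidence from each gene.

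Most keratin-associated protein genes were also highest in mutant 18. Of the 41 tested, which encode the matrix that embeds hair keratin filaments, 28 were highest in mutant 18 (68.3%, where 23.2% of all genes were; 24 of 37 without the 4 that passed the filter only through that library) and 18 lowest in mutant 14. Without Krtap13 their sums were 299.8, 441, 734 and 221. A list of hair follicle matrix and inner root sheath genes, which holds some of these genes, was more divided. Of its 16 tested members, 7 were highest in mutant 18. Another 6 were highest in mutant 14 (25.9% of all genes), Gata3, Sox21 and Lef1 among them. Trichohyalin (Tchh), which hardens the inner root sheath, was at 853, 648, 1331 and 644. The hair regulators Hoxc13 (47.8, 54.7, 73.8 and 75.6) and Foxn1 (111, 64.7, 103 and 142) were not highest in mutant 18. A part of hair follicle number or stage in these values was not tested.

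The promoters of the keratins that moved together across libraries were read from RefSeq (GRCm38.p6), which held an entry for 36 of the 55 members (37 start sites, with 2 for Krt13). The members without one were Krt1, Krt15, Krt16, Krt17, Krt19, Krt222, Krt33a, Krt35, Krt4, Krt6a, Krt6b, Krt74, Krt80, Krt81, Krt83, Krt85, Krt86, Krt87 and Krt88. The 90 bases before the start of the 7 inner root sheath keratins that were highest in mutant 18 (Krt74 was not), of Krt10 and Krt77 of skin, and of 3 simple keratins that were highest in mutant 14 are shown, with each TATAAA, the core of the TATA box that places the start of transcription, in capitals.
Krt25 (chr11:99322952-99323041, minus strand): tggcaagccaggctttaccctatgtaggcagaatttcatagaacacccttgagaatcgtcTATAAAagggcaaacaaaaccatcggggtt
Krt26 (chr11:99337966-99338055, minus strand): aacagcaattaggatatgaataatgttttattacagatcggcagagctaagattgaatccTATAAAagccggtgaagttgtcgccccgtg
Krt27 (chr11:99351119-99351208, minus strand): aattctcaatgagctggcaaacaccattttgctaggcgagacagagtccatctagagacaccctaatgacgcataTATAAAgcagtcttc
Krt28 (chr11:99374904-99374993, minus strand): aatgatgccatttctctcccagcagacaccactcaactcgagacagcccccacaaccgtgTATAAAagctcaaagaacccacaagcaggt
Krt71 (chr15:101743098-101743187, minus strand): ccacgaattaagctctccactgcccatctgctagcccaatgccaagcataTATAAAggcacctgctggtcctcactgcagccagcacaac
Krt72 (chr15:101786521-101786610, minus strand): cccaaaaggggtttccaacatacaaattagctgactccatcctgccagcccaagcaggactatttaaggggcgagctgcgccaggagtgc
Krt73 (chr15:101802361-101802450, minus strand): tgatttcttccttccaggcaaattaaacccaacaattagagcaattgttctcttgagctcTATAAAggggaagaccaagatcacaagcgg
Krt10 (chr11:99389365-99389454, minus strand): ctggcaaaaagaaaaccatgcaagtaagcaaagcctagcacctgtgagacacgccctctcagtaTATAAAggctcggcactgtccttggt
Krt77 (chr15:101869706-101869795, minus strand): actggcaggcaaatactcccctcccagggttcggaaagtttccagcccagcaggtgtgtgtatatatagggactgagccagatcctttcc
Krt7 (chr15:101412313-101412402, plus strand): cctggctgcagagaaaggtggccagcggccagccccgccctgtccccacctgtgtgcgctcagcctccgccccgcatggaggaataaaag
Krt8 (chr15:102004343-102004432, minus strand): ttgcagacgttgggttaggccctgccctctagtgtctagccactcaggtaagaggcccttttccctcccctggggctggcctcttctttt
Krt18 (chr15:102028126-102028215, plus strand): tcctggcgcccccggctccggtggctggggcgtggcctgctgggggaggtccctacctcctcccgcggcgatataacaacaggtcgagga

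Of the 7 inner root sheath promoters, 6 held the motif close to the start, as did that of Krt10. Those of Krt72, Krt77 and the 3 simple keratins did not hold it in exactly these letters. Over the 250 bases before the start and on both strands, TATAAA was found in 12 of 15 hair keratin entries, 1 of 3 skin suprabasal entries, 0 of 2 basal entries and 0 of 3 simple entries, against 12.4% of all 32851 RefSeq promoter entries of the same length. On the gene's own strand within 50 bases of the start it was found in 10 hair keratins, beginning 15 to 47 bases before it, where 2.63% of all entries held it. By the gene bounds of GENCODE, the 250 bases of Krt7, of Krt14 and of 1 of the 2 Krt13 entries lie inside the gene. Those of Krt8 and Krt18 run into it, as do those of Krt23, Krt26, Krt71 and Krt82. For these genes the motif results hold for the RefSeq starts only. The match is a description of the letters and says nothing of what set the levels.

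A second stretch was shared by 4 hair shaft keratins. CTTTGAAG, a motif described in hair keratin promoters that the factor Lef1 can bind, lay in 4 of 15 hair keratin entries (1 further member, Krt39, held it 20 bases before its start, on the other strand) and in 1.42% of all entries (both strands, 250 bases). In the 4 hair keratins it began 240 to 247 bases before the start, in genes that lie side by side on chromosome 11. The first 30 bases of these entries are shown with the motif in capitals.
Krt31 (chr11:100050772-100050801, minus strand): tgacttCTTTGAAGggctactgcagaactc
Krt32 (chr11:100088490-100088519, minus strand): gccCTTTGAAGatgtgtcttgatgctctcc
Krt33b (chr11:100030089-100030118, minus strand): ttaCTTTGAAGccaaaccatgaagctcttt
Krt34 (chr11:100041775-100041804, minus strand): aatctgcctcCTTTGAAGgcatctaatgaa
Lef1 itself was at 505, 562, 388 and 572, with overlap between the genotypes (log2 fold change -0.18, SE 0.21). A part of Lef1 in the values of these 4 keratins was not tested. Of the other motifs searched on both strands, TGANTCA, the site of AP-1 factors, was found in 2 of 37 keratin entries, both of Krt13 (6.75% of all entries). The 250 bases of 1 of these 2 entries lie inside the Krt13 gene. GCCNNNGGC, a site of AP-2 factors, was found in 5 (13.7% of all entries), 2 of them simple keratins (Krt7 and Krt18) and none a hair keratin, and CCACCC, bound by Klf factors, in 13 (28.1% of all entries).

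The genes lie in 2 clusters, with 27 members on chromosome 11 between 99232761 and 100269871 and 27 on chromosome 15 between 101347444 and 102032027 (GENCODE M21, GRCm38; Krt85 was not matched). Hair keratins form blocks in both. In the first block on chromosome 11, Krt25 to Krt28 were each highest in mutant 18 and below the mean of the other libraries in mutant 14, and the next gene, Krt10, was highest in mutant 14. In the block from Krt33a to Krt36 on the same chromosome each gene was highest in mutant 18 except Krt36, which was highest in wild type 20. On chromosome 15, Krt8 and the type I gene Krt18, which lie next to each other at its end, were both highest in mutant 14. The shaft keratins that share most sequence, such as Krt31 with Krt34 and Krt81 with Krt86, are near each other, so shared reads and shared position cannot be told apart for the shaft keratins.

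**Figure D4:**
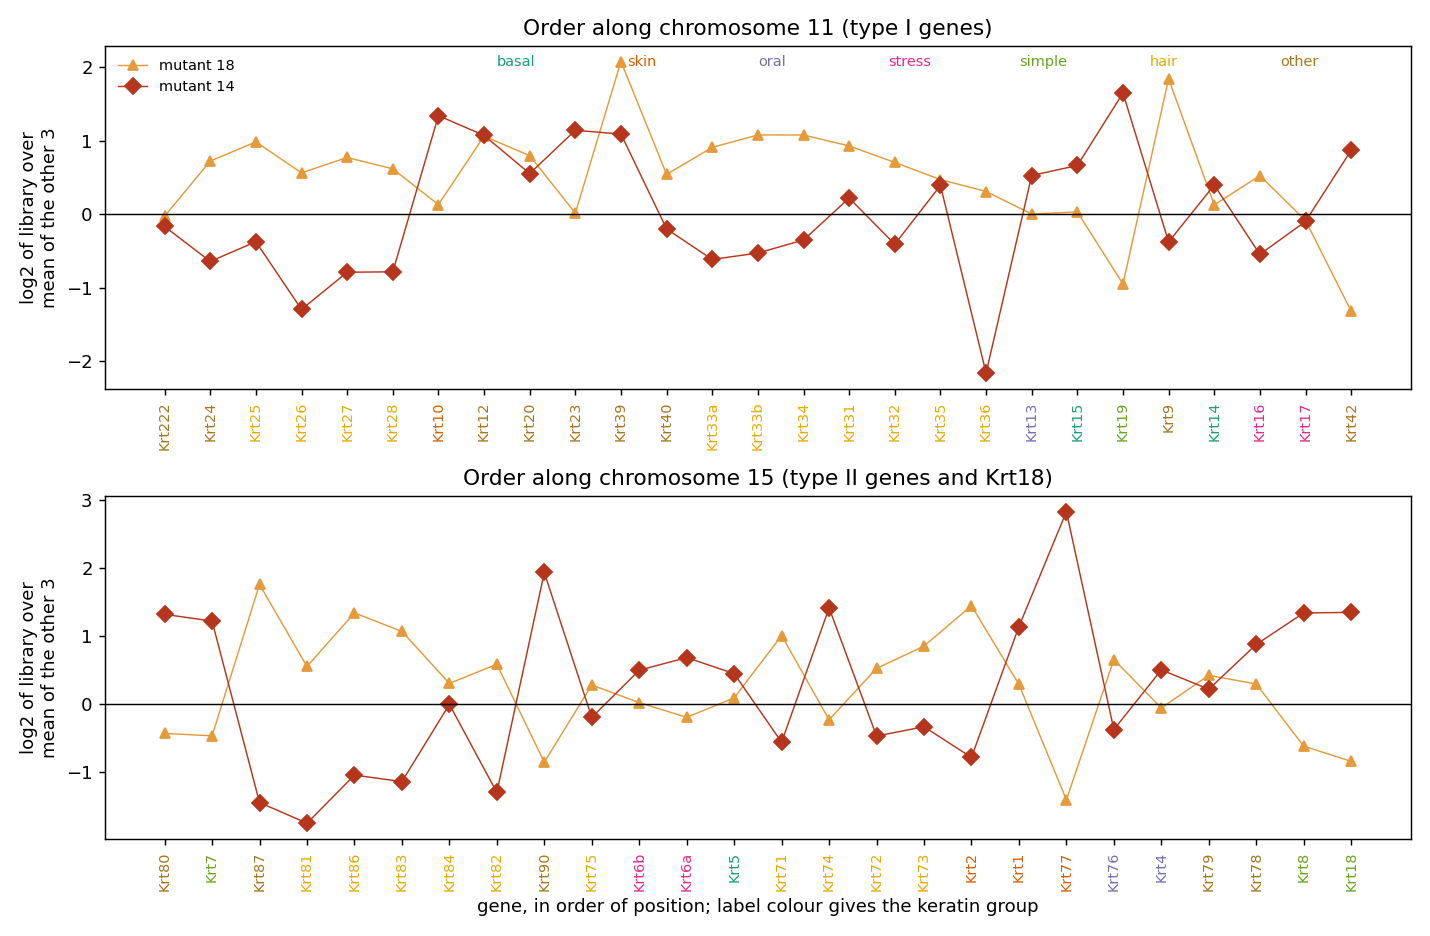
Log2 of the value in mutant 18 (triangles) or mutant 14 (diamonds) over the mean of the other 3 libraries, for the tested members in their order along chromosome 11 (top) and chromosome 15 (bottom); label colours give the keratin groups. Hair keratins other than Krt74 lie above 0 in mutant 18, and Krt10, Krt1, Krt77, Krt7, Krt8, Krt18 and Krt19 lie above 0 in mutant 14.

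Of 10 combinations of a type II with a type I keratin used in the same cells, 8 had a ratio that varied less across the libraries than the level of either gene. Per kilobase of exon, Krt5 was at 1.68, 1.55, 1.57 and 1.64 times Krt14, a range of 1.09-fold across the 4 libraries where the levels ranged 1.99-fold and 2.04-fold. Krt1 was at 0.845, 0.768, 0.839 and 0.718 times Krt10, and Krt4 at 0.685, 0.567, 0.582 and 0.594 times Krt13. Krt8 was at 0.927, 0.844, 1.06 and 0.928 times Krt18, and in the inner root sheath Krt71 was at 1.63, 1.29, 1.42 and 1.26 times Krt25. The ratio of Krt71 to Krt27 ranged 1.42-fold, that of Krt7 to Krt19 1.54-fold and that of Krt77 to Krt10 3.70-fold, less than the 4.03-fold range of Krt10. The 2 exceptions were Krt6a with Krt16 (12.8 to 34.7 times, a range of 2.70-fold) and Krt6a with Krt17 (0.881 to 2.01 times). Keratins that are not partners were not compared in this way, so the count of 8 does not show a trait particular to partners.

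Among the 15 members outside the groups, 14 were tested and 12 were higher, 7 of them with no overlap (median log2 fold change 0.93, between 0.64 and 0.89 with 1 library left out). Without Krt39 there were 13 tested, 11 higher and 6 with no overlap (46.2%, against 13.4% of all genes). Krt78, a type II keratin of suprabasal layers (chromosome 15, 101946001 to 101954287), had the smallest p of the family. It was at 320, 350, 588 and 770, so the groups were well apart (log2 fold change 1.01, SE 0.19, limma, adjusted p = 0.311). Its log2 fold change was at least 0.81 with any 1 library left out.

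Krt23, a type I keratin of simple and stratified epithelia, was at 634, 668, 1013 and 1703 (log2 fold change 1.01, SE 0.23, limma, adjusted p = 0.488). Krt79, a keratin of the hair canal and sebaceous duct, was at 314, 421, 550 and 497 (0.52, SE 0.19, adjusted p = 0.9999). Krt80, found in many epithelia, was at 1621, 855, 1405 and 3229, with mutant 18 below wild type 15. Both Krt78 and Krt23 thus had the library order of Krt1 and Krt10 within the mutants, with mutant 14 above mutant 18.

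The remaining members were scarce. Krt12, a keratin of the cornea, was at 1.04, 5.94, 16.2 and 16.3 (log2 fold change 2.41, SE 0.81, limma, adjusted p = 0.913), and its exons overlap a gene on the opposite strand, A830036E02Rik, at 1.97 to 8.58. Krt9, a keratin of footpad skin, was at 7.32, 8.90, 35.2 and 13.2. Krt20, of gut and Merkel cells, was at 4.21, 10.8, 18.1 and 16.2, while the Merkel cell factor Atoh1 was at 17.6, 24.0, 47.5 and 27.5. Both were low and highest in mutant 18. Krt39 was listed at 0, 0, 2.85 and 2.03, and Krt88 at 0 in all but mutant 14 (2.03). Whether the counting used strand is not stated, and exons of 11 members overlap a gene on the opposite strand, Krt5, Krt6a, Krt6b, Krt8 and Krt10 among them.

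**Figure D5:**
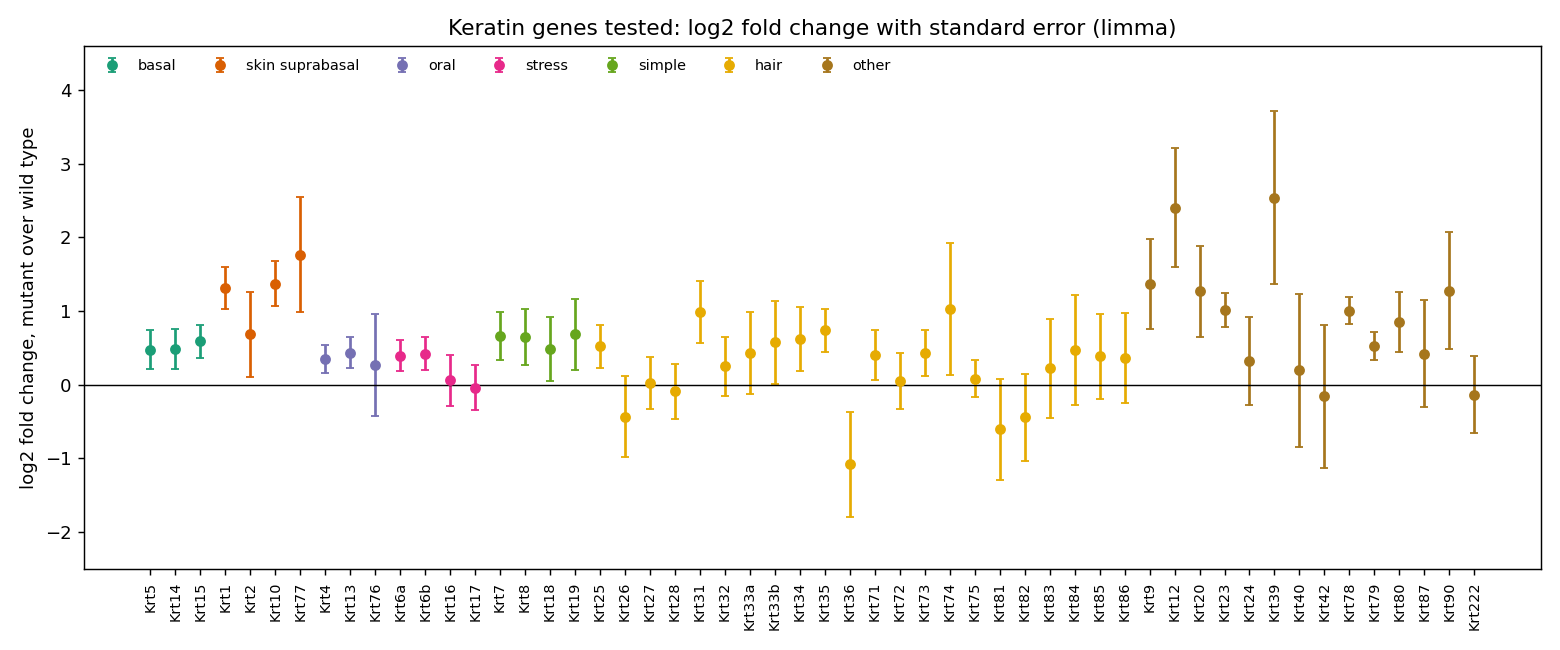
Log2 fold change of mutant over wild type with its standard error (limma) for the 54 keratin genes tested, coloured by group. Krt1, Krt10, Krt78 and Krt23 lie above 1 with standard errors of 0.19 to 0.30, Krt77 lies at 1.76 with one of 0.78, hair keratins scatter around a median of 0.38, and no gene passed the threshold.

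The RNAs of proteins that anchor or link keratin filaments were mostly higher as well. Of 19 tested linker genes, 16 were higher in mutant, 12 with no overlap (13.4% of all genes), and the median log2 fold change was 0.53. The list held Hrnr, and also Flg2, which was in the cornified layer list too. With limma 0 passed over all genes, and 9 had an unadjusted p under 0.05 (4.27% of all genes). Desmoplakin (Dsp), which ties keratin filaments to desmosomes, was at 11752, 9562, 13367 and 20274, and epiplakin (Eppk1), a keratin-binding cytolinker, at 428, 383, 537 and 915. Plectin (Plec), which links filaments in many tissues, overlapped (8354, 7046, 7082 and 7806). The linker genes Pkp2, Dst, Itga6, Itgb4 and Tchh overlapped too. The mesenchymal filament gene Vim was also alike, at 29431, 33900, 32148 and 29638.

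Transcription factors that act on keratin genes were mostly highest in mutant 14. Of 28 in the list, 24 were higher in mutant, 10 with no overlap (13.4% of all genes), the median log2 fold change was 0.44, and 25 were highest in mutant 14 (25.9% of all genes). With limma 0 passed over all genes, and 7 had an unadjusted p under 0.05 (4.27% of all genes). Trp63, the master factor of stratified epithelium, was at 1981, 2295, 2290 and 2732, so that wild type 20 and mutant 18 were nearly equal, as for the basal keratins. Ovol1, which acts as cells leave the basal layer, was at 344, 346, 555 and 854 (adjusted p = 0.418), and Grhl1, a factor of desmosome and barrier genes, at 805, 592, 974 and 1772 (log2 fold change 0.93, SE 0.28, adjusted p = 0.775), both by limma. Msx2, a homeobox factor of tooth and hair, was the one member lower with no overlap (473, 550, 286 and 305).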

How the data were processed

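A stranded mRNA kit was used for the 4 libraries, per the labels' protocols. The values that the authors deposited are signal, as normalized counts per gene; the submitters' processing notes name DESeq2 and mm10 without versions. No source used here names an aligner, a counter, a strand option or an annotation. Raw reads per gene, and so the depth behind each value, are unknown.

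Values were analysed as log2(value + 0.5) for the 17979 genes with a mean of at least 1, with limma 3.58.1 in R 4.3.3 (mean-variance trend, moderated variance, genotype as the only term), and p-values were adjusted by Benjamini-Hochberg over all these genes at a threshold of 0.05. The fit was tested on simulated data. Each log2 fold change is the mutant minus the wild-type mean on this scale and understates changes of low genes; ratios of means are named as such. Lengths, positions and overlaps came from GENCODE M21 (GRCm38) and promoters from RefSeq. Members, groups and gene lists were chosen with earlier results of these data known. Keratins with a mean of at least 100 in the 6 groups and the 10 with the smallest p are given in every library; other members were named after their values were seen. Keratin-associated proteins were taken by symbol after the data were seen. Flg was not analysed here.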

Additional observations from a re-analysis of the deposited data

How the results depend on the processing

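No paired analysis was possible because the library codes are not shared between genotypes. No keratin passed under any of the 9 other scalings, filters, pseudocounts and variance settings or with a library left out (smallest adjusted p between 0.145 and 0.998). The filters and variance settings cannot change the log2 fold change of a gene. Scaling by the median of ratios left it as it was. Under the other scalings and pseudocounts, none of the 27 single keratins with values in every library changed direction. The count of all genes that passed was 2, and was 1 with no filter or no mean-variance trend, 4 with robust moderation and 0 to 6 with a library left out. Scaling moved the median of all genes by at most 0.010.

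When 1 library was left out, the lone library of its genotype was assumed to vary like the others. Then 32 to 47 keratins were higher in mutant (46 with all). Between 24 and 36 were higher with no overlap (16 with all). Of all genes, 30.1% to 33% were (13.4% with all), since fewer values are then compared. These keratin counts were added after the data were seen. The median log2 fold change ranged from -0.024 to 0.48 for stress, -0.12 to 1.29 for simple and -0.16 to 0.71 for hair keratins. The range was -0.35 to 0.47 for Krt16, -0.57 to 0.50 for Krt17, -0.30 to 1.26 for Krt18, -0.21 to 1.58 for Krt19, -0.035 to 1.33 for Krt8, -0.55 to 0.61 for Krt27, -0.16 to 0.96 for Krt71 and -0.16 to 0.32 for Krt75. The difference in log2 ratio to the basal sum ranged from -0.38 to 0.17 for oral (-0.11 with all), -0.41 to 0.69 for simple (0.14), -0.83 to 0.42 for hair (-0.20) and -0.16 to 0.89 for other keratins (0.36). With Cdh1 and Epcam as the reference it was 0.10 for oral, -0.046 for stress (-0.26 with the basal sum) and 0.0059 for hair keratins. The cause of these changes was not tested.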

Other observations

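Krtap13, a keratin-associated protein gene, had most of the counts of its family in mutant 14, where the other 53 genes summed to 221. It was at 1922 (wild type 15), 96.2 (wild type 20), 191 (mutant 18) and 8679 (mutant 14), so mutant 14 and wild type 15 were high and the other libraries low. Krt77 had the same 2 libraries highest (1834, 685, 1513 and 9586). The gene was named after its values were seen.

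Melanocyte genes, of cells that sit in skin and hair follicles, were higher in both mutant libraries in 7 of 7 members with no overlap (6 of 6 without the 1 that passed the filter on low values only through mutant; 13.4% of all genes), with sums of 346, 378, 505 and 544 in the order wild type 15, wild type 20, mutant 18 and mutant 14, and 0 passed over all genes with limma (3 at an unadjusted p under 0.05, against 4.27% of all genes). Of 8 general mesenchyme genes, 2 were higher and 6 lower (median log2 fold change -0.061), 2 of the latter with no overlap (14% of all genes). These were Col1a1 (541155, 519187, 412514 and 417344) and Col1a2 (420900, 417789, 350569 and 323949). Of 16 dental epithelium genes 12 were lower, 6 with no overlap (14% of all genes), with Shh at 371, 684, 161 and 205. Among 9 Merkel cell genes, 7 were higher and 4 did not overlap (13.4% of all genes).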
